A study of Mus musculus with 6 samples.

Results

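Genes that encode proteins of the dentin matrix, or enzymes that modify it, were followed in the dental pulp of the mandibular first molar at P3.5, i.e. 3.5 days after birth. They were chosen by name from the table of 27506 genes: Dspp, Dmp1, Ibsp, Spp1, Mepe, Phex, Fam20c, Bglap and Bglap2. All 9 were listed, and 8 had enough counts to be tested, Mepe being the exception. There were 3 RNA-seq libraries from Ror2fl/fl control mice and 3 from Osr2-Cre;Ror2fl/fl mice, all of the C57BL/6 strain. By the genotype labels both groups were homozygous for the floxed Ror2 allele and only the mutant group carried the Cre transgene. The paper reports that this Cre is active in dental mesenchyme and alveolar bone but not in dental epithelium. It found Ror2 undetectable in the dental mesenchyme of these mutants and still present in the epithelium. The titles also carry a letter code, WW in control library 1, OW in control libraries 2 and 3 and OR in the mutant libraries, whose meaning is not given, so the controls may differ in a way that the genotype label does not show. The number codes in the titles begin with a different digit in each group, and their meaning is not given either. Differences between the groups cannot be told apart from whatever these codes mark. The labels name neither litters nor the number of animals behind a library, so p-values measure the spread between these libraries, which may be partly technical. The comparison asks whether matrix genes of odontoblasts differ in the pulp when the mesenchyme lacks Ror2, at the age when root formation begins.

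Odontoblasts are the mesenchyme-derived cells that line the pulp and lay down dentin, a mineralized matrix built on type I collagen. Into that collagen they secrete acidic phosphoproteins of the SIBLING family (small integrin-binding ligand N-linked glycoproteins), whose phosphate groups bind calcium and steer mineral growth. Dentin sialophosphoprotein, from Dspp, is the most tooth-enriched member of the family and the usual marker of terminally differentiated odontoblasts. Bone cells make many of the same proteins, and young ameloblasts, the enamel-forming epithelial cells, express Dspp for a short time. Since these are bulk libraries, fewer cells of a type cannot be told apart from less RNA per cell.

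Expression is given in CPM, the counts of a gene relative to the library size after edgeR's TMM scaling. Means carry their SD over n = 3 libraries. A difference is given as log2 FC, the log2 fold change of mutant against control, with its SE (standard error). Totals ranged from 56134770 to 62628940 estimated counts per library. Ror2, the deleted gene, had 38.2, 36.2 and 36.7 CPM in the 3 controls against 27.9, 28.1 and 26.3 CPM in Osr2-Cre;Ror2fl/fl libraries, lower in every mutant library (log2 FC -0.43, edgeR adjusted p = 0.013, 0.066 without control library 2 and 0.075 without control library 3). The threshold was 0.05 for the adjusted p of edgeR's quasi-likelihood test, and by it 20.2% of the 19330 genes tested differed between the groups, i.e. 3906 genes, a count that fell to 910, 872 and 2404 when control library 2, control library 3 or mutant library 1 was left out. The odontoblast gene Dspp was abundant, but the most abundant gene in control libraries was Amelx, the main enamel matrix gene, with 8.86% to 9.92% of the scaled counts in control and 12.3% to 16.0% in mutant libraries. The share that such epithelium has in the values of the matrix genes was not tested.

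Of the 8 tested members, 1 passed the threshold in the comparison of the groups, against 20.2% of all genes (10.4% higher and 9.84% lower in mutant libraries). This was Spp1, which was higher in Osr2-Cre;Ror2fl/fl libraries. Dspp, Dmp1, Ibsp, Phex, Fam20c, Bglap and Bglap2 did not pass. Spp1 was also the single member whose groups did not overlap, whereas 44.7% of all genes tested had groups that did not overlap, 22.6% with every mutant library higher and 22.1% with every mutant library lower. The median log2 FC of the 8 members was 0.01, and that of all genes tested was 0.01 as well.

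**Figure D1:**
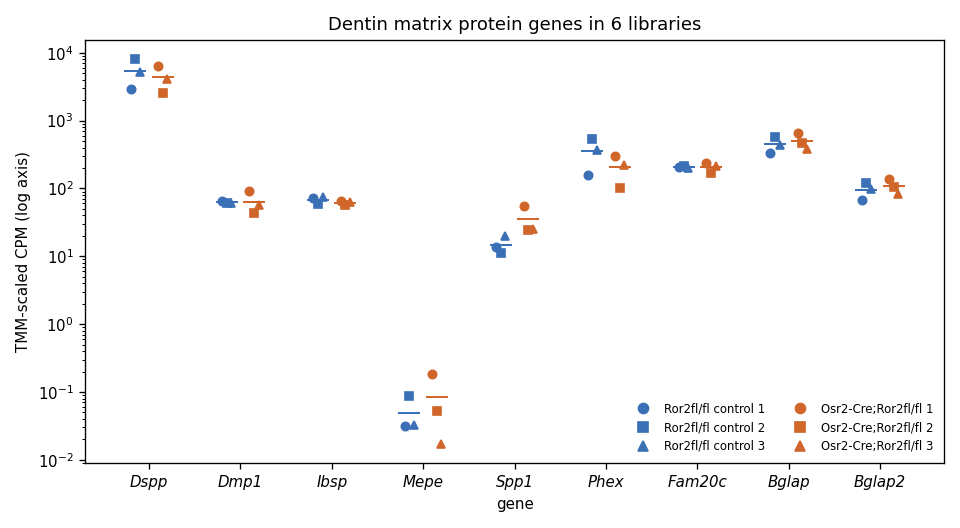
TMM-scaled CPM on a log axis for the 9 dentin matrix genes. Each point is 1 library, blue for control and orange for Osr2-Cre;Ror2fl/fl, and horizontal lines are group means. The groups overlap for every gene except Spp1, whose mutant libraries lie between 24.2 and 55.2 CPM and whose control libraries lie between 11.3 and 19.6 CPM.

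The 5 SIBLING genes lie side by side on the plus strand of chromosome 5 of mm10, in the order Dspp, Dmp1, Ibsp, Mepe and Spp1, within 270 kb from 104170712 to 104441050. The gaps between them are 22.5, 85.1, 13.9 and 96.5 kb. Their levels did not follow this order. In controls Dspp, at 1 end of the cluster, had 5369 CPM, whereas Mepe, next to Ibsp, had almost no counts.

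Dspp (ENSMUSG00000053268.7; chromosome 5, 104170712 to 104180127) encodes a precursor that is cut into dentin sialoprotein and dentin phosphoprotein, the acidic part that nucleates mineral. Its coding sequence of 2835 bases, without the stop codon, is dominated by short repeats of serine and aspartate codons. Of 945 codons, 36.4% encode serine and 18.8% aspartate, and the 9 bases agtgacagc, for Ser-Asp-Ser, occur 52 times in frame. A stretch of 90 coding bases (chr5:104177579-104177668, plus strand, coding bases 1807 to 1896) shows this repeat, with its 7 copies in capitals.
Dspp: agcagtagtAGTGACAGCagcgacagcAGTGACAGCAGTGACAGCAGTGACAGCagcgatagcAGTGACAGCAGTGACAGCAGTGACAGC
Despite the repeat, none of the 4357 distinct stretches of 75 bases (the read length) in its transcript occurs in another annotated gene.

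Dspp had 2909, 7979 and 5218 CPM in control libraries 1, 2 and 3 and 6396, 2515 and 4151 CPM in mutant libraries 1, 2 and 3. The highest value was a control library, the lowest a mutant library, and the ranges overlapped almost completely. On its own Dspp took between 0.259% and 0.753% of all counts of a library, and it ranked 9th among all listed genes in the control mean. The means were 5369 ± 2538 and 4354 ± 1949 CPM. The log2 FC of -0.30 (SE 0.41) was short of the threshold (edgeR, adjusted p = 0.62). Its 95% interval ran from a 0.420-fold to a 1.57-fold level in mutant libraries. Its log2 FC was -0.61 without control library 1, 0.09 without control library 2, -0.68 without mutant library 1 and -0.01 without mutant library 2.

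Dmp1 (ENSMUSG00000029307.7; chromosome 5, 104202613 to 104214102) encodes dentin matrix protein 1, an acidic phosphoprotein of dentin and of osteocytes. It was nearly constant in control libraries, with 64.8, 61.1 and 61.2 CPM, and had 90.9, 43.5 and 56.5 CPM in mutant libraries, where library 1 was above and libraries 2 and 3 were below all controls. The means, 62.3 ± 2.14 and 63.6 ± 24.5 CPM, differed by a log2 FC of 0.03 (SE 0.23, edgeR adjusted p = 0.94), with a 95% interval from 0.705-fold to 1.48-fold. The sign of this value turned in 5 of 16 alternatives.

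Ibsp (ENSMUSG00000029306.8; chromosome 5, 104299171 to 104311469) encodes bone sialoprotein, which is made above all by bone- and cementum-forming cells. It was the steadiest SIBLING gene, with 71.2, 58.9 and 73.6 CPM in the 3 controls against 64.8, 57.1 and 62.8 CPM in mutant libraries. The groups overlapped, and the log2 FC was -0.14 (SE 0.11, edgeR adjusted p = 0.38). Its 95% interval, from 0.760-fold to 1.08-fold, was the narrowest among the 8 members tested.

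Mepe (ENSMUSG00000053863.3; chromosome 5, 104325329 to 104338611) encodes matrix extracellular phosphoglycoprotein, a regulator of phosphate and mineral in bone and dentin. It had 2, 5 and 2 counts in control libraries and 11, 3 and 1 counts in mutant libraries, in libraries of at least 56134770 counts. The control libraries together held 9 counts (exact Poisson 95% interval 4.12 to 17.1) and the mutant libraries 15 (8.40 to 24.7), intervals that cover counting error only. The groups overlapped, and no difference was detectable at this depth.

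Spp1 (ENSMUSG00000029304.14; chromosome 5, 104435118 to 104441050) encodes osteopontin, a secreted phosphoprotein that binds integrins and is made by bone-forming cells, osteoclasts, macrophages and many other cells. It had 13.7, 11.3 and 19.6 CPM in control libraries and 55.2, 24.2 and 25.4 CPM in mutant libraries. Every mutant library lay above every control library, and mutant library 1 stood above the other two. The means were 14.9 ± 4.27 and 34.9 ± 17.6 CPM. Its log2 FC of 1.23 (SE 0.34) passed the threshold (edgeR adjusted p = 0.039), a 2.35-fold higher level with a 95% interval from 1.37-fold to 4.02-fold. Of all genes tested, 22.6% were likewise higher in every mutant library than in every control library. Without mutant library 1 the log2 FC was 0.74 (edgeR adjusted p = 0.070), and the call was also lost without control library 1, 2 or 3 (adjusted p = 0.11, 0.14 and 0.066 from edgeR). Of 1895 distinct stretches of 75 bases in its transcripts, 162 also occur in Gm42793, an overlapping gene.

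Markers of other cells that make osteopontin were set beside Spp1. Among all genes tested 20.2% passed, and 22.6% were higher and 22.1% lower in every mutant library. The 8 osteoclast markers summed to 76.3, 73.7 and 79.0 CPM in the 3 controls against 101, 71.1 and 56.4 CPM in mutant libraries, which overlapped. Oscar, an osteoclast receptor and the marker with the smallest p, had 0.248, 0.189 and 0.130 CPM in the 3 controls against 0.372, 0.347 and 0.424 CPM in mutant libraries, higher in each (log2 FC 1.001, edgeR adjusted p = 0.084, limma voom adjusted p = 0.027). Calcr, a receptor of mature osteoclasts that is named after its values were seen, was not tested and lay between 0.118 and 0.264 CPM, lower in every mutant library. None of the 7 osteoclast markers tested passed (edgeR), 1 had an unadjusted p under 0.05, and DESeq2, the likelihood ratio test and limma voom called 0, 0 and 1. The 8 macrophage markers summed to 155, 190 and 178 CPM in the 3 controls against 205, 167 and 136 CPM in mutant libraries, and 1 of them fell, Adgre1 (log2 FC -0.61, edgeR adjusted p = 0.048), a call lost in 9 of 16 alternatives. C1qb, a complement component, had 17.0 ± 1.77 and 26.1 ± 8.15 CPM and was higher in every mutant library, if barely between control library 2 with 18.27 CPM and mutant library 3 with 18.32 CPM (log2 FC 0.62, edgeR adjusted p = 0.072), and Lyz2, lysozyme, had 21.3 ± 2.04 and 29.5 ± 6.56 CPM (0.47, adjusted p = 0.073). DESeq2, the likelihood ratio test and limma voom each called 3 of the 8 macrophage markers, C1qb and Lyz2 among them. Both sums were highest in mutant library 1, where Spp1 was highest, and lowest in mutant library 3, where Spp1 was still above every control library. The 9 bone cell markers summed to 323 to 461 CPM in the 3 controls against 260 to 371 CPM in mutant libraries, which overlapped. The part of these cells in the Spp1 values was not tested.

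Promoter windows of 250 bases upstream of the transcription start were read from RefSeq (GRCm38.p6, the same assembly as mm10), which held 7 of the 9 members. Missing entries were Dspp and Bglap2. The windows were searched on both strands for ACCACA, the core that Runx factors bind, Runx2 being required for osteoblast and odontoblast differentiation. It was found in Spp1, Dmp1, Bglap and Mepe, i.e. in 4 of 7 member windows, against 14.0% of 32851 windows of that length. The windows of Spp1 (chr5:104434861-104435110, plus strand), the member that passed the threshold, and of Dmp1 (chr5:104202367-104202616, plus strand) and Bglap (chr3:88384467-88384716, minus strand), which did not pass the threshold, are shown with the match in capitals.
Spp1: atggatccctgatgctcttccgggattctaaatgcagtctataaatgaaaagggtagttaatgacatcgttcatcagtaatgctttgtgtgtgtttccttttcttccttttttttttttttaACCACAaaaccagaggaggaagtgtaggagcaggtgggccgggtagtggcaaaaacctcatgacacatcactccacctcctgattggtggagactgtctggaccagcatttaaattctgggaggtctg
Dmp1: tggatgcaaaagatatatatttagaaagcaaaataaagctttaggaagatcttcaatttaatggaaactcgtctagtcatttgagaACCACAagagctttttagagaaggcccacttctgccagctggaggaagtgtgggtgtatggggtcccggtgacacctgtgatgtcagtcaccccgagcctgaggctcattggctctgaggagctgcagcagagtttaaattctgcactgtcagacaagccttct
Bglap: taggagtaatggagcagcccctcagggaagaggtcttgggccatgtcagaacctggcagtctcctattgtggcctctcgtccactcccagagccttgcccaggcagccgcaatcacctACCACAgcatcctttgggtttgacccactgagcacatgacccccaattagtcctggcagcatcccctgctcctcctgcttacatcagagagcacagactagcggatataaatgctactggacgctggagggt
Counted from the start, the match began at -128 in Spp1, -164 in Dmp1 and -132 in Bglap. Mepe had 2 matches, the nearer one at -80. A match is a description of these letters and not a binding site.

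Phex (ENSMUSG00000057457.11; chromosome X, 157162075 to 157415312, minus strand) encodes a membrane endopeptidase whose loss causes X-linked hypophosphatemia with poorly mineralized dentin. It had 156, 539 and 373 CPM in the 3 controls against 304, 101 and 219 CPM in mutant libraries. It was the most variable member, and its groups overlapped. The means, 356 ± 192 and 208 ± 102 CPM, gave a log2 FC of -0.77 (SE 0.48) that was short of the threshold (edgeR adjusted p = 0.27). The 95% interval ran from 0.272-fold to 1.26-fold. Its log2 FC was -0.35 without control library 2 and -0.43 without mutant library 2, and it ranged from -1.15 to -0.35 over the omissions.

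Fam20c (ENSMUSG00000025854.15; chromosome 5, 138754514 to 138810077, plus strand) encodes the Golgi kinase that phosphorylates the SIBLING proteins. It had 205, 215 and 199 CPM in the 3 controls against 234, 169 and 214 CPM in mutant libraries. The group means were 206 ± 8.21 and 206 ± 33.3 CPM, and the log2 FC was -0.003 (SE 0.13, edgeR adjusted p = 0.99), with a 95% interval from 0.805-fold to 1.24-fold. The sign of this value turned in 6 of 16 alternatives.

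**Figure D2:**
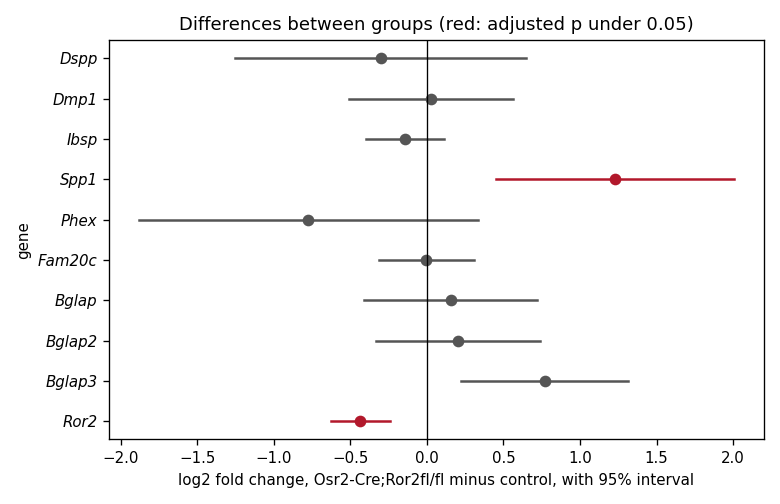
Log2 fold change of Osr2-Cre;Ror2fl/fl against control libraries with its 95% interval, from edgeR's quasi-likelihood fit over all genes, for the 8 tested members, Bglap3 and Ror2. Spp1 and Ror2, in red, have an adjusted p-value under 0.05, and the intervals of the other 7 members include 0.

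Osteocalcin, the vitamin K-dependent protein that binds the mineral of bone and dentin, is encoded in mice by Bglap and Bglap2, which neighbour Bglap3, a related copy, on the minus strand of chromosome 3. Bglap (ENSMUSG00000074483.2) lies at 88383501 to 88384464, Bglap2 (ENSMUSG00000074486.2) at 88377736 to 88378699 and Bglap3 (ENSMUSG00000074489.9) at 88368616 to 88372743. Their coding sequences of 285 bases, without the stop codon, differ at 4 positions between Bglap and Bglap2 and at 13 between Bglap and Bglap3. The 75 coding bases from 199 to 273 lie in 1 exon of each gene (chr3:88383650-88383724, chr3:88377885-88377959 and chr3:88368771-88368845). The 7 positions that vary among the genes are in capitals.
Bglap: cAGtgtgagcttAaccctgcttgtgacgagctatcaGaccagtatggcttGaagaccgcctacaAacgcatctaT
Bglap2: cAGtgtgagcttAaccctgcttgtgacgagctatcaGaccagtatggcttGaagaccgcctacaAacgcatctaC
Bglap3: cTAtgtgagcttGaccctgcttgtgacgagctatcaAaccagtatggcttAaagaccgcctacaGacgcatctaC
Counted from the first coding base, Bglap2 differs from Bglap here by T273C alone, and Bglap3 by A200T, G201A, A211G, G235A, G249A, A263G and T273C. A read of exactly this stretch can thus be assigned to Bglap or Bglap2 by a single base. Of all 75-base stretches, 50% in Bglap, 73.3% in Bglap2 and 5.02% in Bglap3 occur in another gene. The deposited counts of all 3 genes were fractions, so the split between them is uncertain.

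Bglap had 334, 579 and 442 CPM in the 3 controls against 656, 474 and 381 CPM in mutant libraries. Bglap2 had 68.3, 119 and 97.0 CPM in the 3 controls against 140, 104 and 83.9 CPM in mutant libraries. For both genes mutant library 1 was highest and control library 1 lowest, and the groups overlapped. The log2 FCs were 0.16 (SE 0.25, edgeR adjusted p = 0.67) for Bglap and 0.20 (SE 0.23, adjusted p = 0.55) for Bglap2. The 95% intervals ran from 0.753-fold to 1.65-fold and from 0.793-fold to 1.67-fold. The sum of the 3 osteocalcin genes, which does not depend on the split, was 557 ± 150 CPM in the 3 controls against 630 ± 173 CPM in mutant libraries, a log2 FC of 0.18 (SE 0.25, edgeR adjusted p = 0.62).

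Bglap3 contributed few of these counts, but its share was larger in mutant libraries. It made up 1.97%, 1.80% and 1.95% of the osteocalcin counts in control libraries and 2.84%, 2.99% and 2.67% in mutant libraries, without overlap (exact permutation test, two-sided, p = 0.1, the smallest p that 3 libraries against 3 allow). The share of Bglap was 81.1 ± 0.582% in control and 79.8 ± 0.254% in mutant libraries (exact permutation test, p = 0.1), and that of Bglap2 was 17.0 ± 0.551% and 17.3 ± 0.258% (exact permutation test, p = 0.4). In its own test Bglap3 had 10.5 ± 2.37 and 17.9 ± 5.24 CPM, a log2 FC of 0.77 (SE 0.24), just outside the threshold (edgeR adjusted p = 0.054). Over the 16 alternatives its adjusted p-value ranged from 0.012 to 0.15, and it was under 0.05 in 6.

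Per length, the levels of the genes could be compared with each other. In CPM per kilobase of annotated exon, Dspp had 1212 ± 573, Bglap 731 ± 198 and Bglap2 201 ± 54.0 in control libraries. They were followed by Phex with 56.6 ± 30.5, Ibsp with 32.8 ± 3.83, Fam20c with 31.3 ± 1.25, Dmp1 with 22.6 ± 0.775, Spp1 with 9.03 ± 2.59 and Mepe with 0.0296 ± 0.0186 CPM per kilobase. Among neighbours in this order, the control libraries overlapped between Dspp and Bglap, between Phex and Ibsp, and between Ibsp and Fam20c. At every other step the 3 control libraries of the neighbours did not overlap. In mutant libraries Spp1 had 14.7 to 33.5 CPM per kilobase and overlapped Dmp1, at 15.7 to 32.9.

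The members varied to different extents between libraries of a group. The pooled within-group SD of log2 CPM was 0.87 for Phex and 0.70 for Dspp, larger than or equal to that of 97.3% and 94.6% of genes tested, where the median gene had 0.21. It was 0.55 for Spp1, and between 0.38 and 0.40 for Dmp1, Bglap and Bglap2. Fam20c with 0.18 and Ibsp with 0.14 were below the median gene.

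Phex was the member whose profile over the libraries was most like that of Dspp. The likeness of a gene to Dspp was measured as the root mean square difference between log2 CPM profiles over the 6 libraries, each centred on its mean. Phex differed by 0.285 and ranked 58th closest of 19329 genes, Bglap by 0.437 and Bglap2 by 0.450. Dmp1 differed by 0.477, Fam20c by 0.496, Ibsp by 0.607 and Spp1 by 0.918, the least like Dspp. Because the libraries of a profile share depth and tissue composition, these are descriptions without a test.

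The 5 genes closest to Dspp were Col1a2 (0.114), Cyfip2 (0.142), Cpz (0.152), Pcsk5 (0.164) and Sema7a (0.175). Col1a2, an α chain of the type I collagen into which these proteins are laid, had 5611, 13854 and 10596 CPM in the 3 controls against 11338, 4422 and 6583 CPM in mutant libraries. The 6 libraries had the same order by Col1a2 as by Dspp, from control library 2 as the highest to mutant library 2 as the lowest.

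**Figure D3:**
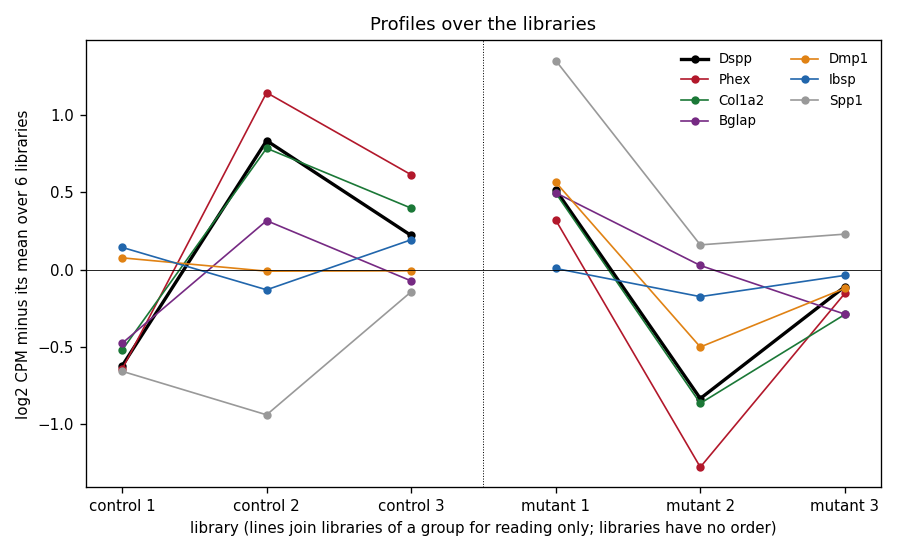
Log2 CPM minus its mean over the 6 libraries for Dspp, 5 other members and Col1a2, with 1 point per library and the groups separated by a dotted line. Dspp, Phex and Col1a2 are high in control library 2 and mutant library 1 and low in control library 1 and mutant library 2, Ibsp stays near 0, and Spp1 lies below its mean in all control libraries.

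A ratio of 2 genes within a library does not depend on the scaling of that library beyond the small prior count, so each of the 7 other tested members was also compared as its log2 ratio to Dspp. Phex relative to Dspp was -4.22, -3.89 and -3.81 in control and -4.39, -4.64 and -4.24 in mutant libraries. Every mutant library lay below every control library, although control library 1 and mutant library 3 were close. The mean difference was -0.45 (exact permutation test, two-sided, p = 0.1, the smallest possible, adjusted p = 0.35 over 7 ratios). Spp1 relative to Dspp was -7.72, -9.46 and -8.05 in control and -6.86, -6.70 and -7.35 in mutant libraries, higher in each mutant library, with a mean difference of 1.44 (exact permutation test, p = 0.1, adjusted p = 0.35) that was 0.92 without control library 2. The groups overlapped for the other 5 ratios. Among all other genes tested, the ratio to Dspp did not overlap between the groups for 5.13%.

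**Figure D4:**
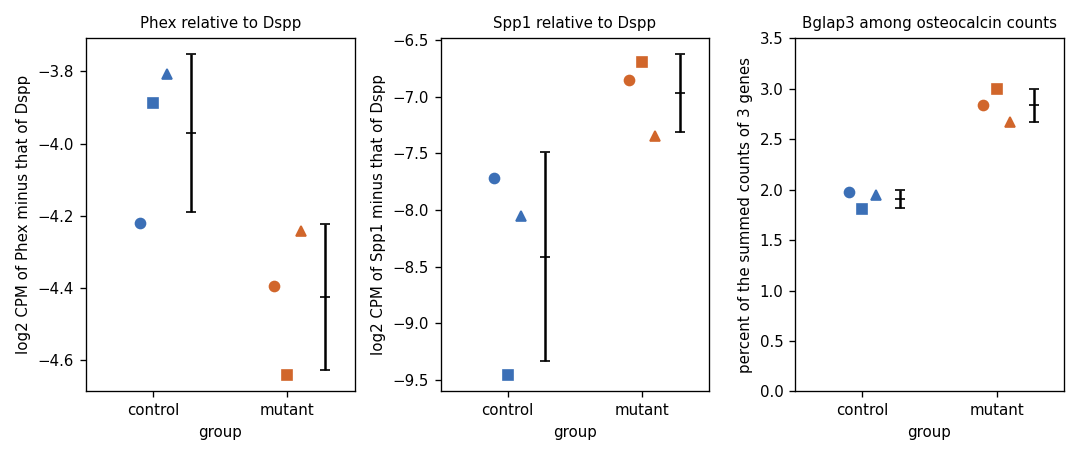
Log2 ratio of Phex to Dspp, log2 ratio of Spp1 to Dspp, and the percentage of the counts of Bglap, Bglap2 and Bglap3 that was assigned to Bglap3. Points are libraries (circle 1, square 2, triangle 3), and black bars are mean ± SD of n = 3. In each panel the 3 mutant libraries lie on 1 side of the 3 control libraries.

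Other genes that act on the dentin matrix were described by lists. The reference for each list is all genes tested, of which 20.2% passed, 10.4% higher and 9.84% lower in mutant libraries. Of 10 tested genes that process the matrix proteins, 2 fell and none rose. These were Ggcx, the γ-carboxylase that activates osteocalcin, from 42.0 ± 2.06 to 28.9 ± 5.15 CPM (log2 FC -0.54, edgeR adjusted p = 0.028), and Tll1, a tolloid protease related to Bmp1, from 22.1 ± 3.66 to 13.8 ± 2.98 CPM (-0.68, adjusted p = 0.040). Mmp20, a protease of enamel and dentin, did not pass (-0.54, adjusted p = 0.073). The median log2 FC of this list was -0.12, and DESeq2, edgeR's likelihood ratio test and limma voom called 3, 3 and 5 of its genes. Ggcx did not pass without control library 1, 2 or 3 or mutant library 1, and Tll1 without control library 2 or 3 or mutant library 1 or 2.

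Of 15 further genes of the collagenous dentin matrix, 1 rose and 3 fell, against 20.2% of all genes tested. Their median log2 FC was -0.47, and DESeq2, the likelihood ratio test and limma voom called 7, 6 and 7. Omd, the leucine-rich proteoglycan osteomodulin, fell from 134 ± 19.4 to 53.9 ± 10.8 CPM (log2 FC -1.31, edgeR adjusted p = 0.0027). Lum, lumican, fell too (log2 FC -0.96, edgeR adjusted p = 0.028), and Fmod, fibromodulin, which is named after its values were seen as the remaining gene called, also fell (-0.88, adjusted p = 0.041). Mgp, matrix Gla protein, a mineral inhibitor that is γ-carboxylated like osteocalcin, rose from 71.1 ± 1.99 to 96.9 ± 7.001 CPM (0.45, edgeR adjusted p = 0.015). Mgp, Lum and Fmod did not pass without control library 2 or control library 3, nor Lum and Fmod without mutant library 2.

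Of 8 tested genes of mineral formation, 1 rose and none fell, against 10.4% higher and 9.84% lower among all genes tested. Slc20a1, a sodium-phosphate cotransporter, rose from 37.4 ± 1.66 to 70.2 ± 12.8 CPM (log2 FC 0.91, edgeR adjusted p = 0.0047). Sgms2, a sphingomyelin synthase needed for bone mineral, and Phospho1, a phosphatase that releases phosphate in matrix vesicles, had log2 FCs of -0.86 (edgeR adjusted p = 0.053) and -0.29 (adjusted p = 0.12). Sgms2 passed in 6 of 16 alternatives. DESeq2, the likelihood ratio test and limma voom called 2, 2 and 3 genes of this list.

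Of 15 regulators of odontoblasts, 2 rose and none fell, where 10.4% of all genes tested rose and 9.84% fell. Atf4, a transcription factor of amino acid supply and of osteocalcin expression, rose from 89.7 ± 2.004 to 139 ± 20.1 CPM (log2 FC 0.63, edgeR adjusted p = 0.013), and Msx2, a homeobox factor, from 168 ± 8.59 to 219 ± 17.5 CPM (0.38, adjusted p = 0.042). Atf4 did not pass without control library 2 or 3, and Msx2 without any 1 of the 3 control libraries or mutant library 1 or 3. Runx2 had 56.4 ± 14.7 and 39.3 ± 3.23 CPM (-0.52, edgeR adjusted p = 0.078) and passed in 5 of 16 alternatives. Of the 15 regulators, DESeq2, the likelihood ratio test and limma voom called 4, 4 and 5, Runx2 among them each time. Among 10 odontoblast markers that are not members, none passed (edgeR's quasi-likelihood test), while 3 had an unadjusted p under 0.05, namely Notum, Sgms2 and Phospho1. DESeq2 called 2 of these 10, edgeR's likelihood ratio test 2 and limma voom 3. Of 12 markers of the less differentiated papilla, 2 fell, Vcan (-1.03, edgeR adjusted p = 0.0085) and Tac1 (-1.44, adjusted p = 0.025), and none rose. The median log2 FC of these 12 was -0.39, and 6 had an unadjusted p under 0.05, all with lower levels in mutant libraries. DESeq2, the likelihood ratio test and limma voom called 5, 4 and 3 of the 12. Tac1 did not pass without control library 2 or 3 or mutant library 1 or 3.

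None of the 4 genes that flank the SIBLING cluster passed (edgeR), 1 of them had an unadjusted p under 0.05, Pkd2, and DESeq2, edgeR's likelihood ratio test and limma voom called 0, 0 and 1 of the 4. Sparcl1, on the Dspp side, had a log2 FC of 0.17 (edgeR adjusted p = 0.37) and Pkd2, next to Spp1, of -0.31 (edgeR adjusted p = 0.11).

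Markers of other tissues were counted in the same way. For reference, 20.2% of all genes tested passed (10.4% higher and 9.84% lower), and 22.6% were higher and 22.1% lower in every mutant library. Of 9 bone cell markers, 2 fell, Omd and Sost, the osteocyte gene of sclerostin, from 6.62 ± 2.06 to 1.004 ± 0.309 CPM (log2 FC -2.72, edgeR adjusted p = 0.0014), and none rose. Bglap3, also on this list, had a positive log2 FC of 0.77 (edgeR adjusted p = 0.054). DESeq2, the likelihood ratio test and limma voom called 3, 3 and 4 of the 9, Bglap3 among them each time. Ifitm5, a gene of mature osteoblasts, was chosen after its values were seen. It ranged from 4.62 to 4.975 CPM in the 3 controls and from 4.965 to 8.29 CPM in mutant libraries. Its groups thus overlapped, and it did not pass (log2 FC 0.43, edgeR adjusted p = 0.145). Of 8 skeletal muscle genes 7 fell (2 by limma voom), and their sum was 11.6 to 41.3 CPM in the 3 controls against 3.20 to 4.14 CPM in mutant libraries. Of 5 erythroid genes 2 fell, Hba-a1 and Alas2, with sums of 782 to 1318 CPM in the 3 controls against 243 to 932 CPM in mutant libraries. Hba-a1 did not pass without mutant library 1, nor Alas2 without any 1 of the 3 control libraries or mutant library 1 or 3. Of 11 genes of the enamel epithelium 1 fell, Odam (-0.55, edgeR adjusted p = 0.012, not without control library 2 or 3), none rose, and DESeq2, the likelihood ratio test and limma voom called 4, 3 and 7 of the 11. Amelx was higher in every mutant library (log2 FC 0.56, edgeR adjusted p = 0.085) and passed in 5 of 16 alternatives, with an adjusted p of 0.00037 by DESeq2. Krt14 was likewise higher in each (0.40, edgeR adjusted p = 0.088). Enam (-0.47, edgeR adjusted p = 0.16), Mmp20 (-0.54, adjusted p = 0.073) and Odam were instead lower in every mutant library. For the other genes of the list the groups overlapped, among them Ambn (-0.11, edgeR adjusted p = 0.74). The list took 17.2% to 19.3% of scaled counts in control and 18.6% to 25.6% in mutant libraries. Amelx alone took 8.86% to 9.92% and 12.3% to 16.0%. The part of these tissues in the values of the members was not tested.

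Across these lists 23 different genes passed the threshold. The numbers tested stand with each list, and 20.2% of all genes tested passed. Of the 23, 5 passed in all 16 alternatives, namely Omd, Slc20a1, Vcan, Sost and Acta1. Without control library 2, 8 of the 23 passed, the fewest, and without control library 3 or mutant library 1, 12 and 14 did.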

How the data were processed

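RNA-seq (single-end, 75 cycles) was deposited as 1 table of estimated counts per gene and 1 normalized table for mm10. The study's methods name TopHat 2 and counting over exons, and the submitters' processing notes name STAR 2.6.1d and Partek. The counting program, annotation and use of strand are not given in the sources used here. The deposited normalized signal was, as tested on the values, the estimated count plus 1 times 1 factor per library, without division by gene length. Columns of 6 other libraries in the count table were not used.

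Estimated counts were rounded and tested with edgeR 4.0.16 (R 4.3.3; TMM scaling, filterByExpr, quasi-likelihood test of all 19330 genes kept, Benjamini-Hochberg adjustment, threshold 0.05). All 6 libraries entered 1 fit with 2 groups and no covariate. Log2 CPM for profiles and ratios used a prior count of 2. Single values were compared with two-sided exact permutation tests, which with 3 libraries per group cannot go below p = 0.1. Alternatives used DESeq2 1.42.0, limma 3.58.1, other scalings, filters and tables, a replicate block, and omission of each library. The scripts were tested on simulated counts. Depth was 56134770 to 62628940 estimated counts per library, and intervals on counts cover counting error only. Exon lengths, positions and transcripts were taken from GENCODE M21. The study's methods speak of 3 pairs of samples, but the labels name no pairs. Same-numbered libraries did not deviate together, so the numbers were not used as pairs.

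The members and lists were chosen with earlier results of these data known. Named genes were the members, Ror2, Bglap3, up to 3 genes with the smallest p in each list, and the 5 genes closest to Dspp in profile. Fmod, Ifitm5 and Calcr were added after their values were seen. Dspp was compared in ratio with 7 members, since Mepe was not tested.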

Additional observations from a re-analysis of the deposited data

How the results depend on the processing

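Of the members, 1 passed the threshold, and 0 passed with the normalized table at pseudocount 1, where Spp1 had an adjusted p of 0.052 (limma). Leaving out 1 library gave 0 to 1. Dspp, Dmp1, Ibsp, Phex, Fam20c, Bglap and Bglap2 passed under none of the alternatives. Of all genes, 3906 passed, 6341 with limma voom and 872 to 5001 with 1 library left out. With the replicate block, 2013 genes and 1 member passed. Same-numbered libraries had correlations of -0.10, -0.08 and -0.0038 of their deviations, and no library correlated best with its own number. The signs of the following values turned, and the cause was not tested. The log2 fold change of Dspp was 0.0912 without control library 2 (-0.684 to 0.0912 over the omissions). That of Dmp1 was -0.0044 with library totals alone, -0.0183 and -0.0196 with the normalized table at pseudocounts 1 and 0.1, -0.0379 with the replicate block and -0.317 without mutant library 1 (up to 0.252). That of Fam20c was 0.0807 with limma voom, 0.0157 with a filter of 1 CPM, 0.0029 with the normalized table at either pseudocount, 0.02 without control library 2 and 0.13 without mutant library 2 (-0.105 to 0.13). That of Bglap was -0.0292 without control library 1 and -0.0781 without mutant library 1 (up to 0.366), where Bglap2 had -0.0139 (up to 0.391) and Mmp9 -0.0773 (up to 0.507). Without control library 2 the difference in the ratio to Dspp was -0.111 for Dmp1, -0.295 for Ibsp and -0.0432 for Fam20c, and without mutant library 2 it was -0.142 for Ibsp. Over the omissions these ratios reached 0.66, 0.57 and 0.649.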
